A study of Mus musculus with 32 samples.

Results

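The genes described here are Adamts17, Glipr2, Egfem1 and Phox2a, 4 of the 22850 genes in the table of normalized scores. They were chosen by measured values of these same libraries, namely their rise in islet endothelial cells (ECs) 1 week after doxycycline withdrawal (1wk WD) over untreated mice (No Dox). For these 4 genes that contrast is therefore given as values with no test, and they were tested only in macrophages (MΦs) and β cells, which the choice did not use. All mice were MIP-GFP; RIP-rtTA; TetO-VEGF-A (βVEGF-A), in which the mouse insulin 1 promoter labels β cells with green fluorescent protein and the rat insulin 2 promoter drives a doxycycline-dependent activator of a human VEGF-A transgene. The activator and the label are thus under insulin promoters and the VEGF-A transgene under the tetracycline operator (TetO), and the No Dox controls carry all of them too. Adult mice received no doxycycline (No Dox), doxycycline for 1 week (1wk Dox), or the same followed by 1 week without it (1wk WD). Islets of several mice were pooled for each sample and sorted into GFP+ β cells, CD31+ ECs and CD11b+ MΦs. In the order No Dox, 1wk Dox, 1wk WD there were 4, 1 and 5 samples of ECs, 4, 2 and 4 of MΦs, and 4, 5 and 3 of β cells, 32 in all.

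VEGF-A is the main growth factor of blood vessels and acts on ECs through the receptor VEGFR2. Islets are densely vascularized, and β cells are their chief source of VEGF-A, so that a transgene switched on in β cells reaches the neighbouring ECs from outside. The 4 genes are not members of a common pathway. Adamts17 encodes a secreted metalloprotease of the ADAMTS family linked to fibrillin microfibrils of the extracellular matrix. Glipr2 (also GAPR-1) encodes a Golgi-associated protein of the CAP superfamily that binds the autophagy protein Beclin 1. Egfem1 is named for the EGF-like and EMI domains of its predicted protein. Phox2a encodes a paired-like homeodomain transcription factor needed for noradrenergic neurons.

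On the mm9 build the genes lie on the plus strand, Adamts17 (ENSMUSG00000058145) at chr7:73984621-74297511, Glipr2 (ENSMUSG00000028480) at chr4:43970273-43991990, Egfem1 (ENSMUSG00000063600) at chr3:28980945-29590126 and Phox2a (ENSMUSG00000007946) at chr7:108966827-108971680. They spanned 312.9, 21.7, 609.2 and 4.9 kb, and their longest coding transcripts had 23, 5, 15 and 3 exons in GENCODE M1. Adamts17 and Phox2a share chromosome 7 but lie 34.7 Mb apart. The last 534 bases of Phox2a, in its last exon, overlap the end of Inppl1 on the minus strand (chr7:108971147-108986740). A strand-specific library was not stated, so reads from those bases cannot be told apart between both genes. Egfem1 contains the microRNA gene Mir551b, which was not in the table used here.

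The promoters are shown because the 4 genes were grouped by a shared rise, and the likeness of these stretches was not measured. They come from RefSeq on GRCm38.p6, not the build of the scores, and each runs from 250 bases before to 50 after a transcript start. All 4 genes matched by symbol, and Egfem1 had 2 listed starts. Capitals mark matches to 9 short motifs searched on both strands, namely the TATA box TATAAA, the GC box GGGCGG, the CCAAT box, the E-box CACGTG, the ETS core CCGGAA, the GATA core AGATAA, the AP-1 site TGANTCA, the RBPJ core TGGGAA and the homeodomain core TAATTA.
Adamts17 promoter, chr7:66839485-66839784 (+): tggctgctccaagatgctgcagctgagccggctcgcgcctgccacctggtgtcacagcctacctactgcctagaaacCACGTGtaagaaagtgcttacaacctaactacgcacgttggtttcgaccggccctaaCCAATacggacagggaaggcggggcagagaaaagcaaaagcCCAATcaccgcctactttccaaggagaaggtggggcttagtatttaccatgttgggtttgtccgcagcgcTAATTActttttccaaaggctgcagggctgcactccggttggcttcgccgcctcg
Glipr2 promoter, chr4:43957452-43957751 (+): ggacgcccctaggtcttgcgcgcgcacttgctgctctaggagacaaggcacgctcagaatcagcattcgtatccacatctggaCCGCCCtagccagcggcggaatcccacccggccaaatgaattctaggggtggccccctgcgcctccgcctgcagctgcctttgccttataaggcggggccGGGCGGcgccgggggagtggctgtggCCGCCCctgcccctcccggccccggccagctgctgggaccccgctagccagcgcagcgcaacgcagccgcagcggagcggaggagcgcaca
Egfem1 promoter, first listed start, chr3:29081537-29081836 (+): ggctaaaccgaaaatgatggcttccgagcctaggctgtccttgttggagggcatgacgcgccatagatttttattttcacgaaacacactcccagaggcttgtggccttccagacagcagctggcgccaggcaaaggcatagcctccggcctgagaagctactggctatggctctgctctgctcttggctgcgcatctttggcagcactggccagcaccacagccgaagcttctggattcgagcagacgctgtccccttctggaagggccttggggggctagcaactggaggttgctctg
Egfem1 promoter, second listed start, chr3:29082281-29082580 (+): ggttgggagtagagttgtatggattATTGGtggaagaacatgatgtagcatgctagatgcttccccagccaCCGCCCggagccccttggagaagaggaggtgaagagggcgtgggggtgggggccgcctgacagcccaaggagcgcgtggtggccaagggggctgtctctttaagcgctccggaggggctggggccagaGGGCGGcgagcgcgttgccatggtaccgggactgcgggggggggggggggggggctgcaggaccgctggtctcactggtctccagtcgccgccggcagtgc
Phox2a promoter, chr7:101818063-101818362 (+): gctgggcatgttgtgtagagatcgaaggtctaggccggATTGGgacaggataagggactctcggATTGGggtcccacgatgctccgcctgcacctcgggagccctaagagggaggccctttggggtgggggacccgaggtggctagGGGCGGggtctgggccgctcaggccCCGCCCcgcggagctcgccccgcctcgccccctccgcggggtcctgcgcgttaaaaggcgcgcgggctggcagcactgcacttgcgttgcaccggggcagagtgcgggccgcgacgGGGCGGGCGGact
The Adamts17 window held 2 CCAAT boxes, an E-box and a homeodomain core. The Glipr2 window held 3 GC boxes, the Phox2a window 4 GC boxes, of which the last 2 overlap, and 2 CCAAT boxes. Of the Egfem1 windows, the first held no match and the second held 2 GC boxes and a CCAAT box. Among all 32851 promoters of the same length, 35.7% held a GC box, 37.4% a CCAAT box, 7.15% an E-box and 5.29% a homeodomain core. No motif was found in all 5 windows. None of them held the TATA, ETS, GATA, AP-1 or RBPJ letters, which 13.6%, 14.9%, 11.2%, 7.81% and 25.6% of all promoters did. The share of G and C was 55.7% for Adamts17, 70.0% for Glipr2, 57.7% and 67.3% for Egfem1 and 71.3% for Phox2a, against a median of 52.7% over all promoters.

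The values are normalized scores, whole numbers that the authors derived from mapped reads, with 1 as the lowest value in the table. Whether they are corrected for transcript length is not stated, so levels are compared between samples and not between genes. Differences are of mean log2(score + 1), which understates changes of low scores, and the spread is the SD between pooled samples. The sorted populations carried their defining markers. In ECs the scores of Pecam1 and Cdh5, adhesion molecules of endothelium, were 61523 to 79350 and 32793 to 53986, and the highest values outside ECs were 7237 and 4829. Insulin (Ins1) reached at least 218872 in β cells and at most 1963 in ECs, and Itgam, the CD11b gene, at least 20309 in MΦs and at most 44 in ECs. RNA of other cells was nonetheless present. Ins1 reached 27471 in MΦs, and Col1a1 reached 61584 in β cells. Replicates 3 and 4 of the 1wk WD ECs stood apart from the other EC libraries. They had 67.9% and 69.1% of genes above the lowest score, against 70.0% to 72.2% in the other 8, and their highest correlations with any other EC library were 0.954 and 0.953, against 0.964 to 0.982. Results that rest on them are given with and without them. Among MΦs, No Dox replicate 2 stood apart, with the lowest median correlation with the other MΦ libraries (0.858, against 0.906 to 0.955), an acinar marker sum of 4186582 and the highest Ins1 score of the MΦs. Among β cells, No Dox replicates 1 and 2 were low in pericyte and fibroblast markers, whose values stand beside Glipr2 below.

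In ECs all 4 genes were low at No Dox and higher in each of the 5 1wk WD samples, which is how they were chosen. Over all 14167 genes tested in this contrast with limma, 1.76% passed a fold change of 2 and an adjusted p under 0.05, and 1.28% did so upward. In either direction 250 genes were called, 171 without replicates 3 and 4 of 1wk WD, and 75 to 311 with single replicates left out. All 4 genes entered that set of tested genes through the 1wk WD group, in which they are high, so nothing is read from their number. The lack of overlap given for each gene below comes with the same choice. The share of all genes separated in this way was not computed.

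Adamts17 scored 9, 22, 9 and 19 in No Dox ECs and 178, 100, 117, 147 and 91 at 1wk WD. The groups did not overlap, and the lowest 1wk WD sample lay above the highest No Dox sample. The difference was 3.08 on the log2 scale (SE 0.39). Glipr2 scored 20, 12, 7 and 8 in No Dox ECs and 150, 61, 97, 128 and 88 at 1wk WD. All 5 withdrawal samples again stood above the untreated range. Its difference was 3.09 (SE 0.42). For both genes replicates 1 and 4 of 1wk WD were highest, and leaving out replicates 3 and 4 gave log2 differences of 3.02 and 2.99.

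Egfem1 and Phox2a were less even across the withdrawal samples. Egfem1 scored 10, 10, 2 and 7 in No Dox ECs and 57, 33, 172, 391 and 45 at 1wk WD. The groups did not overlap, but the 2 highest values came from replicates 3 and 4, the libraries that stood apart. The log2 difference was 3.63 (SE 0.72), and 2.61 without them. Phox2a scored 8, 1, 3 and 5 in No Dox ECs and 44, 21, 98, 90 and 18 at 1wk WD. Replicates 3 and 4 were again highest, with no overlap between groups. The log2 difference was 3.28 (SE 0.69), and 2.54 without both libraries. On the log2 scale the SD between 1wk WD samples was 0.39 for Adamts17 and 0.50 for Glipr2, against 1.48 for Egfem1 and 1.11 for Phox2a. With a pseudocount of 20 instead of 1, the differences of Adamts17, Glipr2, Egfem1 and Phox2a were 2.06, 1.95, 2.1 and 1.46, so their size depended on how low scores are weighted.

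Among the 32 samples used, a single EC library was of 1wk Dox, which allowed values but no test. Adamts17 was 244 in it, above every 1wk WD sample. Glipr2 was 50, between the No Dox and 1wk WD ranges. Egfem1 was 33, equal to the lowest 1wk WD sample and above all No Dox samples. Phox2a was 6, inside the No Dox range of 1 to 8. Adamts17, Glipr2 and Egfem1 thus lay above all No Dox samples in this library, and whether Phox2a was raised before withdrawal was not shown by it. The choice of genes used these No Dox values, and the share of all genes with such a level was not computed. Nothing is read from the number of genes above them. Set against the No Dox mean, the log2 differences of this library were 4.06, 2.11, 2.21 and 0.62 in the same gene order.

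**Figure D1:**
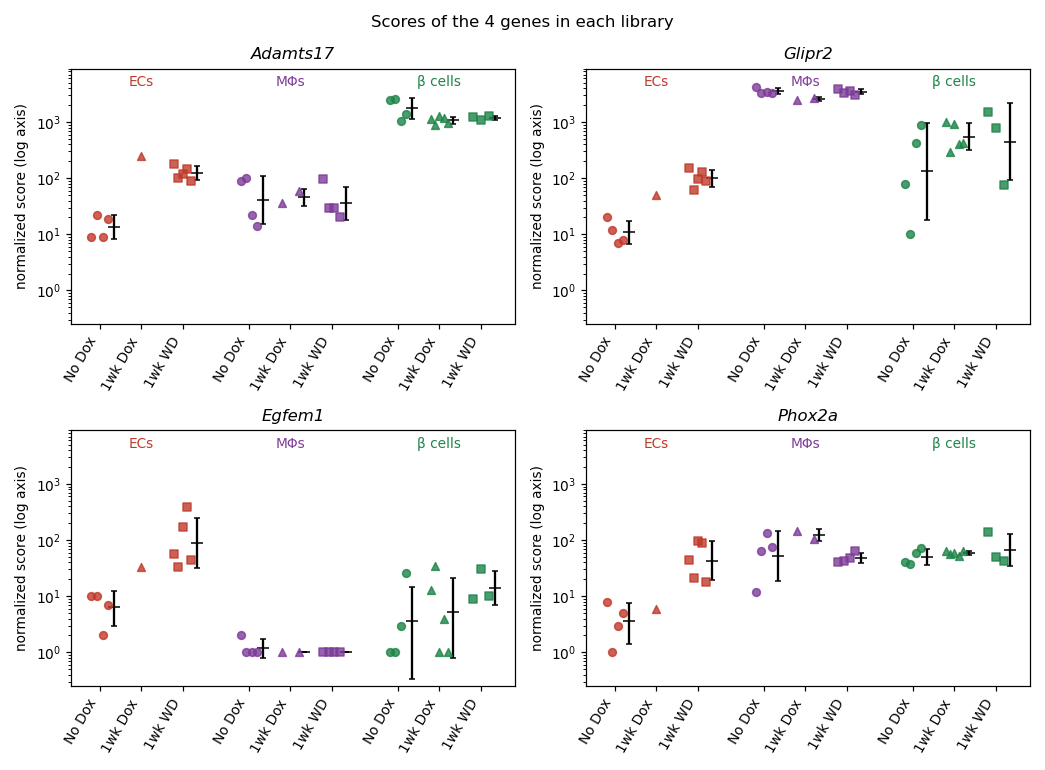
Each point is the normalized score of a library (log axis) for Adamts17, Glipr2, Egfem1 and Phox2a, by cell type and time point, with circles for No Dox, triangles for 1wk Dox and squares for 1wk WD. Black bars give the mean and SD of log2(score + 1) where a group has more than 1 library. In ECs the 1wk WD squares lie above the No Dox circles in all 4 panels, while Adamts17 is highest in β cells and Glipr2 in MΦs.

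Across the 9 groups the 4 genes followed different orders, as the plot of scores by cell type shows. Adamts17 was highest in β cells, where its 12 samples ranged from 904 to 2602, and the β cell groups overlapped with each other. The EC 1wk Dox sample came next, followed by ECs at 1wk WD with a mean score of 127 ± 35.8 (SD, n = 5). These overlapped with MΦs at No Dox (57.2 ± 45.7, n = 4), the MΦ groups overlapped with each other, and ECs at No Dox were lowest (14.8 ± 6.75, n = 4). Glipr2 was highest in MΦs, with 2437 to 4261 in 10 samples, then in β cells with 10 to 1498 in 12 samples. ECs at 1wk WD had a mean of 105 ± 34.8 (n = 5), within the wide β cell range and far below MΦs. The name of endothelial gene therefore fits the change by which these genes were chosen. It fits neither the level of Adamts17 or Glipr2 nor that of Phox2a, given below.

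Egfem1 was the gene whose highest level was in ECs, at 1wk WD, the group by which it was chosen. In No Dox ECs its mean of 7.25 lay below those of the β cell groups (7.75, 10.8 and 16.7), with overlap. Its mean score was 140 ± 151 (n = 5) at 1wk WD, and the 1wk Dox value of 33 equalled the lowest of these. In β cells it ranged from 1 to 35, with overlapping groups, and in MΦs it was 1 in 9 of 10 samples and 2 in the other. Phox2a at 1wk WD in ECs (54.2 ± 37.8, n = 5) lay among groups that overlapped with it, β cells at No Dox (51.8 ± 16.4, n = 4) and at 1wk Dox (58.8 ± 5.26, n = 5). Its highest group was MΦs at 1wk Dox, with 145 and 103, and the EC groups at No Dox and 1wk Dox were the lowest, with overlapping values. All Phox2a scores were below 150, a low level at which few reads decide a value, and the depth behind the scores is unknown.

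Markers of other cells moved with the withdrawal state in the EC samples. The summed score of 13 pericyte and fibroblast markers was 6147 to 13894 in No Dox samples, 15574 in the 1wk Dox sample, and 18702 to 76946 after withdrawal. The ranges did not overlap, and 6 of the 12 genes of this list that were tested rose, with none lower. Without replicates 3 and 4 of 1wk WD 7 rose, and with single replicates left out 2 to 6 did, with 2 in the absence of No Dox replicate 1 or 3 and 4 in that of No Dox replicate 2 or 1wk WD replicate 1, 4 or 5. Col1a1, a fibrillar collagen chain, rose by 2.07 on the log2 scale (SE 0.49, limma adjusted p = 0.0363), a call lost without any single replicate other than No Dox 2 or 1wk WD 2 and, without both libraries that stood apart, at adjusted p = 0.0825. Pdgfrb, the PDGF receptor of pericytes, had a difference of 1.76 (SE 0.49, limma adjusted p = 0.0645), and was called without both (2.09, adjusted p = 0.0161). None of the 13 markers was at the lowest score in all samples of a group. Summed endothelial markers were 627571 to 668707 in No Dox samples, 774016 in the 1wk Dox sample, and 489767 to 561809 after withdrawal. Of the 12, 0 were called, and 1 was called lower without No Dox replicate 2, 1wk WD replicate 1 or 1wk WD replicate 2. Kdr, the VEGFR2 gene, and Flt1, the VEGFR1 gene, singled out after their values were seen, had differences of −0.98 and −0.71 (limma adjusted p = 0.00348 and 0.00666) and missed the call by the fold change alone. In bulk samples fewer cells of a type and less RNA per cell cannot be told apart. The part of pericytes or fibroblasts in the rise of the 4 genes was not tested, and since both moved with the group, they cannot be told apart.

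The plot of the 4 genes against the marker sum shows both sample by sample. Replicate 3 of 1wk WD had the lowest marker sum of its group, 18702, and scored 98 for Phox2a and 172 for Egfem1, the highest and second highest of the group. Replicates 1 and 4 had the highest sums, 52734 and 76946, and the highest Adamts17 and Glipr2 scores within the withdrawal group. Without replicates 3 and 4, the libraries that stood apart, replicates 1, 5 and 2 had sums of 52734, 24295 and 22164. Replicate 1 was then highest for all 4 genes. Glipr2 (150, 88 and 61) and Egfem1 (57, 45 and 33) had the same order as the sums. Adamts17 (178, 91 and 100) and Phox2a (44, 18 and 21) did not. The choice of genes used these 1wk WD values, so nothing is read from the orders. The 1wk Dox library, with 15574, held the highest Adamts17 score of all ECs. Summed β cell markers, which could carry Adamts17, were 434 to 2166 at No Dox and 369 to 3312 at 1wk WD, with overlap. Summed MΦ markers, which could carry Glipr2, were 658 to 779 at No Dox and 589 to 984 at 1wk WD, against at least 334057 in MΦs. Acinar markers moved the other way, with sums of 21542 to 671130 in No Dox samples, 25 in the 1wk Dox sample, and 122 to 27628 after withdrawal. All 6 were called lower, but 0 were without No Dox replicate 1, 2 or 3 or 1wk WD replicate 3, or without 1wk WD replicates 3 and 4 together. Markers of other endocrine cells summed to 80 to 1100, 94 and 12 to 294 in the same order of groups, with overlap. All 3 tested had negative differences, with a median of −2.38, and Ppy was called lower (−3.3, SE 0.77, limma adjusted p = 0.0333). The part of acinar and other endocrine cells in the differences was not tested either.

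**Figure D2:**
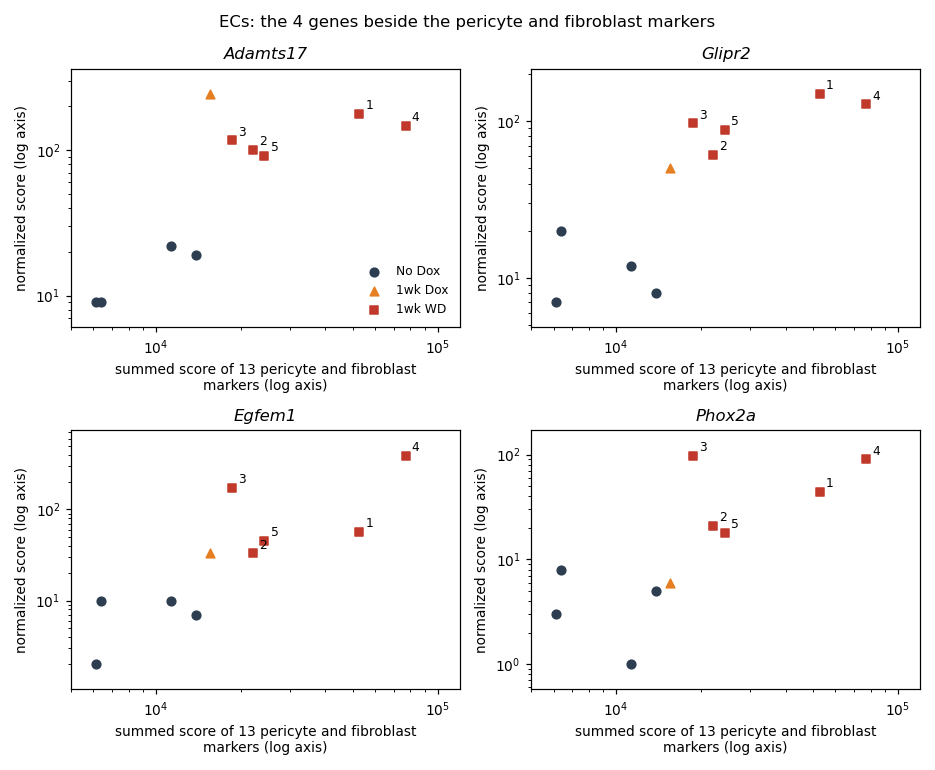
Scores of the 4 genes in the 10 EC libraries (vertical log axes) against the summed score of 13 pericyte and fibroblast markers (horizontal log axes), with circles for No Dox, a triangle for 1wk Dox and numbered squares for the 1wk WD replicates. The No Dox libraries lie at sums up to 13894 and the 1wk WD libraries at 18702 and above, and replicate 3, at the lowest 1wk WD sum, has the highest Phox2a score.

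Phox2a was also set beside the genes around it. The noradrenergic enzymes Th and Dbh, its known downstream genes in neurons, were at 1 or 2 in all EC samples except for a Dbh score of 11 in 1wk WD replicate 4. The 8 neural and Schwann cell markers summed to 711 to 843 in No Dox ECs, 477 in the 1wk Dox sample, and 465 to 964 after withdrawal, with 0 of 4 tested called. Inppl1, the lipid phosphatase gene that overlaps the end of Phox2a, scored 1478, 1637, 1687 and 1277 in No Dox ECs, 1902 in the 1wk Dox sample, and 1062, 1573, 780, 623 and 1358 after withdrawal. Inppl1 was lowest in replicates 3 and 4, in which Phox2a was highest, and its difference was −0.57 (SE 0.24, limma adjusted p = 0.19), and −0.2 (adjusted p = 0.549) without both. The share of Inppl1 reads in the Phox2a scores was not tested.

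Gene families around the members were described by counts in the same EC contrast, in which 1.76% of all tested genes were called and the median difference was 0. Of 19 tested ADAMTS proteases and ADAMTS-like proteins other than Adamts17, 1 rose and 1 fell, with a median difference of 0.15. Adamts18, a secreted metalloprotease, rose by 1.79 (SE 0.32, limma adjusted p = 0.0132), and Adamtsl2, a fibrillin-binding protein without protease activity, fell by 1.62 (SE 0.22, adjusted p = 0.00335). Without 1wk WD replicates 3 and 4, 2 genes of the family were called higher and 1 lower, and both named genes kept their calls with each single replicate left out. None of 5 CAP superfamily genes, 19 EMI domain or EGF-repeat genes, 7 genes of the noradrenergic programme and 14 genes of the fibrillin microfibril was called, with medians of −0.04, −0.09, 0.23 and 0.03. The relatives Glipr1 and Emid1 differed by −0.17 (SE 0.61, adjusted p = 0.893) and −0.08 (SE 0.15, adjusted p = 0.781). Adamts19, the closest relative of Adamts17, was under the filter in ECs, with scores of 1 to 36.

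In MΦs, a population the choice did not use, 3 of the 4 genes could be tested, and none passed at 1wk Dox or 1wk WD, with or without No Dox replicate 2. The background was 2.26% of 15014 genes for 1wk Dox over No Dox, 0.626% for 1wk WD over No Dox and 0.0866% for 1wk WD over 1wk Dox. As counts these were 340, 94 and 13 genes, and 487, 101 and 13 without No Dox replicate 2. Wider ranges with other replicates left out are given at the end. At these shares nothing is read from the absence of calls among 3 genes. Glipr2 scored 4261, 3342, 3503 and 3307 in No Dox MΦs, 2437 and 2706 under 1wk Dox, and 3920, 3339, 3620 and 3067 after withdrawal. Both 1wk Dox samples lay below all others. The log2 difference of 1wk Dox over No Dox was −0.48 (SE 0.15, 95% interval −0.82 to −0.15, limma adjusted p = 0.0947), which missed both thresholds. At 1wk WD it was −0.05 (SE 0.13, interval −0.32 to 0.23, adjusted p = 0.882). Without No Dox replicate 2 these differences of Glipr2 were −0.51 and −0.08.

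Adamts17 scored 91, 102, 22 and 14 in No Dox MΦs, 36 and 58 under 1wk Dox, and 96, 29, 30 and 20 after withdrawal. The groups overlapped throughout. The 1wk WD difference was −0.20 (SE 0.74, interval −1.79 to 1.39, adjusted p = 0.917). Phox2a scored 12, 63, 134 and 75 in No Dox MΦs, 145 and 103 under 1wk Dox, and 41, 43, 48 and 63 after withdrawal. Of the 1wk Dox samples, 145 lay above the No Dox range and 103 within it. The differences were 1.19 at 1wk Dox (SE 0.77, interval −0.49 to 2.87, adjusted p = 0.415) and −0.14 at 1wk WD (SE 0.63, interval −1.51 to 1.23, adjusted p = 0.932). Without No Dox replicate 2 the 1wk WD differences were 0.23 for Adamts17 and −0.06 for Phox2a, and the 1wk Dox difference of Phox2a was 1.27. With single replicates left out, the Phox2a difference of 1.19 at 1wk Dox became 0.5 (No Dox replicate 1) to 1.63 (No Dox replicate 3). Between 1wk WD and 1wk Dox the differences of Adamts17, Glipr2 and Phox2a were −0.33, 0.43 and −1.33 (SE 0.90, 0.15 and 0.77), with limma adjusted p of 0.968, 0.37 and 0.642. Egfem1, at 1 or 2, was at the lowest scores in every MΦ sample, so no difference was computed. Of the families, Stab1, a scavenger receptor with EGF-like repeats, rose by 1.05 at 1wk Dox (SE 0.18, adjusted p = 0.0108), and it was the only call among the 5 lists in MΦs. There was no call in its list without No Dox replicate 3 or without either 1wk Dox replicate, where the lone 1wk Dox library is assumed to vary like the other groups. Markers of other cells moved in the same contrast. Summed endothelial markers were 3809 and 4885 under 1wk Dox against 1891 to 2478 in No Dox MΦs, with 11 of 12 differences positive, a median of 2.01 and 1 called. All 6 acinar markers had negative differences, with a median of −8.37 and 4 called, and 3 of 9 proliferation genes were called higher. Their part in the MΦ values was not tested. In the 3 MΦ contrasts the medians of the 5 gene family lists lay between −0.58 and 0.89.

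In β cells again 3 of 4 genes could be tested and none was called. The background was 0.0122% of 16346 genes (2 genes) for 1wk Dox over No Dox, and 0% for 1wk WD over No Dox and for 1wk WD over 1wk Dox. At an unadjusted p under 0.05 with a fold change of 2, limma gave 660, 727 and 471 genes. The spread between β cell samples was wide, with a median residual SD of 0.61 against 0.346 in MΦs and 0.282 in ECs.

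Adamts17 scored 2482, 2602, 1047 and 1414 in No Dox β cells, 1121, 904, 1292, 1163 and 953 under 1wk Dox, and 1230, 1101 and 1278 after withdrawal. Replicates 1 and 2 of No Dox were far above all others, and the other samples overlapped. The differences were −0.71 at 1wk Dox (SE 0.26, interval −1.28 to −0.13, limma adjusted p = 0.64) and −0.55 at 1wk WD (SE 0.30, interval −1.2 to 0.1, adjusted p = 0.618). Phox2a scored 40, 37, 58 and 72 in No Dox β cells, 63, 56, 58, 52 and 65 under 1wk Dox, and 142, 51 and 42 after withdrawal. A single 1wk WD sample was high, and all groups overlapped. Its differences were 0.23 at 1wk Dox (SE 0.46, adjusted p = 0.944) and 0.43 at 1wk WD (SE 0.53, adjusted p = 0.808). Egfem1 scored 1, 1, 3 and 26 in No Dox β cells, 13, 35, 1, 4 and 1 under 1wk Dox, and 9, 31 and 10 after withdrawal, below the filter. An exact two-sided permutation test gave p = 0.714 for 1wk Dox and p = 0.171 for 1wk WD over No Dox, where the smallest possible values were 0.00794 and 0.0286.

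Glipr2 had the widest spread in β cells. It scored 80, 10, 428 and 870 in No Dox β cells, 1025, 293, 934, 413 and 426 under 1wk Dox, and 1498, 798 and 76 after withdrawal. The differences were 2.02 at 1wk Dox (SE 1.2, interval −0.6 to 4.65, limma adjusted p = 0.768) and 1.74 at 1wk WD (SE 1.37, interval −1.24 to 4.73, adjusted p = 0.695), intervals that held both 0 and differences above 4. With single replicates left out they were 0.82 to 2.92 and 0.54 to 3.02, lowest in both without No Dox replicate 2 and highest without No Dox replicate 4 and 1wk WD replicate 3, respectively. The 1wk WD value was 0.88 without 1wk WD replicate 1. From 1wk Dox to 1wk WD the difference of Glipr2 was −0.28 (SE 1.31), and those of Adamts17 and Phox2a were 0.16 (SE 0.29) and 0.20 (SE 0.50), with limma adjusted p of 0.996, 0.987 and 0.994. Without 1wk WD replicate 3 that of Glipr2 was 1, and without 1wk WD replicate 1 it was −1.15. The 3 libraries with 80, 10 and 76 were those with the lowest sums of pericyte and fibroblast markers, 1459, 1639 and 27552. The other 9 had sums of 111343 to 576829 and Glipr2 scores of 293 to 1498, as the plot of Glipr2 in β cells shows. All 13 of these markers had a positive difference in both contrasts with No Dox, with medians of 3.66 and 3.6 and none called. The 3 libraries with Glipr2 scores of 80, 10 and 76 also had the highest sums of β cell markers, 8664281, 5535990 and 10888983. In the other 9 these sums were 501783 to 2936196. Other markers moved with the groups too, with none called. Macrophage markers summed to 598 to 5923 in No Dox β cells, 1713 to 5399 under 1wk Dox, and 5360 to 7732 after withdrawal, where 9 of 10 had a positive difference with a median of 2.01. All 12 endothelial markers had positive differences in both contrasts with No Dox, with medians of 2.19 and 1.06, and all 6 acinar markers negative ones, with medians of −9.22 and −5.89. The part of such cells in the Glipr2 scores was not tested.

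**Figure D3:**
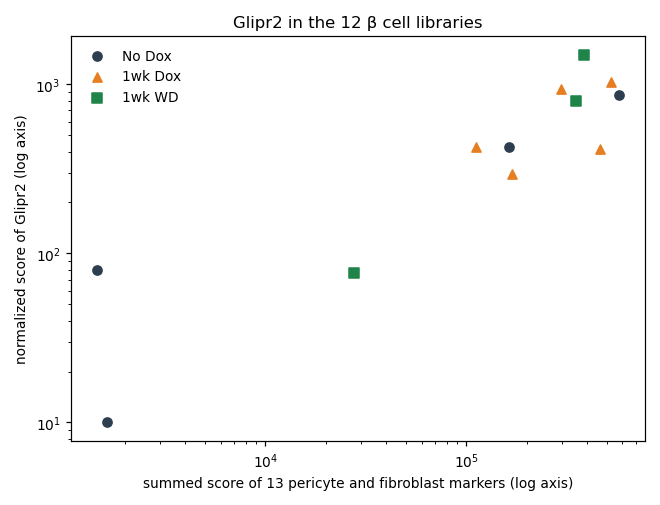
Glipr2 score (vertical log axis) against the summed score of 13 pericyte and fibroblast markers (horizontal log axis) in the 12 β cell libraries, with circles for No Dox, triangles for 1wk Dox and squares for 1wk WD. The 3 libraries with sums up to 27552 have Glipr2 scores of 10 to 80, and the other 9 have 293 to 1498.

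No gene of the 5 families was called in β cells. The 24 ADAMTS genes had a median difference of 1.31 under 1wk Dox and 1.9 after withdrawal, and the 18 genes of the fibrillin microfibril 1.99 and 2.45, against 0.03 and 0.06 over all genes. The 13 pericyte and fibroblast markers had medians of 3.66 and 3.6 in the same contrasts, and their part in the family values was not tested. Of the 24 ADAMTS genes, 20 and 22 had differences above 0, beside the negative ones of Adamts17. The No Dox samples low in pericyte and fibroblast markers were those with the highest Adamts17. The 5 CAP superfamily genes had medians of 0.69 and 1.03, the 21 EMI and EGF-repeat genes 0.43 and 0.81, and the 15 noradrenergic genes −0.15 and −0.31.

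**Figure D4:**
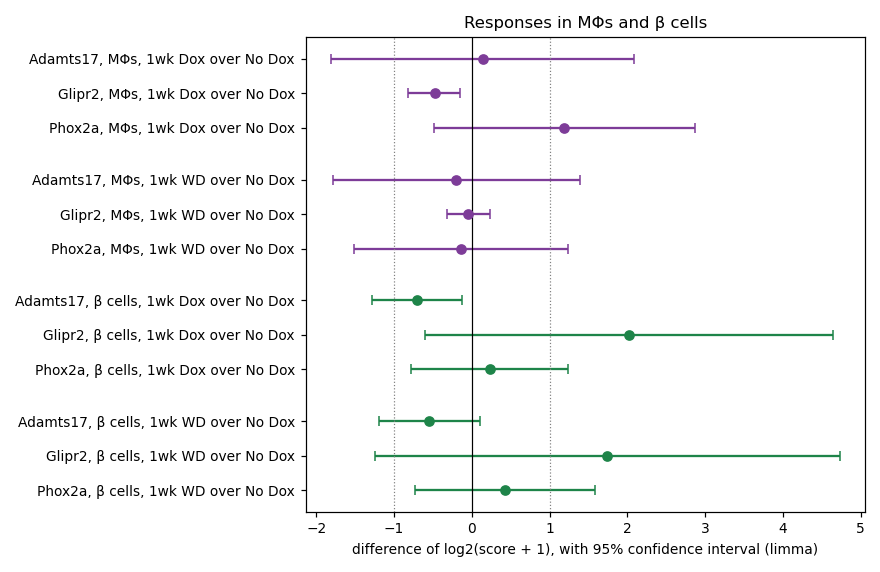
Differences of mean log2(score + 1) with 95% confidence intervals from limma for Adamts17, Glipr2 and Phox2a in MΦs (purple) and β cells (green), at 1wk Dox and 1wk WD over No Dox. Dotted lines mark a fold change of 2 in either direction. Of the 12 intervals, only Glipr2 in MΦs and Adamts17 in β cells, both at 1wk Dox, exclude 0, and neither passed after adjustment over all genes.

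A joint fit of MΦs and β cells asked whether the genes responded differently in both. None of the 3 tested genes did, beside 0.0119% of 16821 genes (2 genes) for the 1wk WD response and 0% for the 1wk Dox response, for which limma gave 559 genes at an unadjusted p under 0.05 with a fold of 2. The 1wk WD response in MΦs minus that in β cells was 0.35 for Adamts17 (SE 0.81, adjusted p = 0.924), −1.79 for Glipr2 (SE 1.45, adjusted p = 0.739) and −0.57 for Phox2a (SE 0.83, adjusted p = 0.862). The Glipr2 value was −0.58 without β cell No Dox replicate 2, −0.92 without β cell 1wk WD replicate 1 and −3.06 without β cell 1wk WD replicate 3. The intervals, −4.82 to 1.25 for Glipr2 among them, were too wide to show that the responses were alike. At 1wk Dox the same difference was 0.84 for Adamts17 (SE 0.85), −2.5 for Glipr2 (SE 1.53) and 0.96 for Phox2a (SE 0.87). The limma adjusted p were 0.94, 0.93 and 0.937. ECs were not part of this test because their values chose the genes.

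The genes most like each member over all 32 libraries and 16968 genes, each reaching a mean of 20 or more in some group, mirrored the cell types in which that member was high. Pearson's r of log2(score + 1) is a description here, since samples of a cell type share most of it. Adamts17 was closest to Cdh2 (0.948), encoding N-cadherin, Robo1 (0.945), a receptor for Slit proteins, and Cacna2d1 (0.933), a calcium channel subunit. Mean scores of Cdh2 in ECs were 146 without doxycycline, 263 under it and 594 after withdrawal, and 11802 to 16220 in β cells. Glipr2 was closest to Apbb1ip (0.963), Runx2 (0.962) and Abca9 (0.961), an adaptor of integrin activation, a transcription factor and a lipid transporter, which like Glipr2 were highest in MΦs. Egfem1 was closest to Btbd3 (0.824), Zfp945 (0.820) and Cstf2t (0.819), and Phox2a to Plxdc2 (0.763), Pgcp (0.758) and Ikbke (0.756), at lower r than Adamts17 and Glipr2. Between the members themselves r ranged from −0.40 (Glipr2 and Egfem1) to 0.67 (Glipr2 and Phox2a).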

How the data were processed

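RNA of sorted islet cells was amplified (NuGEN Ovation) and sequenced. According to the submitters' processing notes and the study's methods, reads were mapped to mm9 with TopHat2 2.0, and the authors deposited TMM-normalized scores per gene from Avadis NGS. These scores are whole numbers of at least 1 and no raw counts. Their sums were 23465985 to 53441769 per sample and do not give depth, which is unknown and limits the low scores. The table held 38 columns of per-sample values, of which 6 matched no sample here and were not used. Amplification and low scores can widen the spread. The stated RNA integrity limits of the labels and the methods differ.

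Scores were transformed as log2(score + 1) and fitted per cell type in R 4.3.3 with limma 3.58.1 (eBayes with trend), for genes that averaged 20 or more at 1 or more time points. The EC fit held No Dox and 1wk WD only. A gene was called at a fold change of at least 2 and a Benjamini-Hochberg adjusted p under 0.05 over all genes tested. Responses of MΦs and β cells were compared in a joint fit, and a gene under the filter by an exact two-sided permutation test. Figures and descriptions used Python 3.11.15. The members, gene lists and markers were chosen with earlier results of these data known. Named genes were the members, the 3 genes most like each over 32 samples, called genes of the lists, the nearest relatives and the defining markers, and Inppl1 was added after its values were seen because it overlaps Phox2a. An item that this rule also names is not reported here. Samples are pools of islets from several mice, and whether pools shared animals was not stated, so p-values measure the spread between these samples. Alternatives were a pseudocount of 20, no filter, median-of-ratios scaling, no trend, a replicate block, fits of only the groups compared and each replicate left out. Leaving out the EC libraries that stood apart was added after the data were seen. The fits were tested on simulated data. Positions came from the deposited table and matched GENCODE M1, and promoters from RefSeq (GRCm38.p6).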

Additional observations from a re-analysis of the deposited data

Results flagged for a closer look

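For Adamts17, all 5 EC samples of 1wk WD lay above the No Dox mean of log2(score + 1), all 3 β cell samples lay below theirs, and the difference in ECs minus that in β cells was 3.63. This difference was not tested, because the EC values chose the gene. The β cell difference alone was not called (−0.55, limma adjusted p = 0.618), and No Dox replicate 3, at 1047, lay below all 3 samples of 1wk WD. No sample lay far from its group by Dixon's 95% limit among the groups of 4 or 5 samples looked at for the 4 genes, leaving out groups with scores of 1 to 3.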

How the results depend on the processing

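All 176 recomputed counts of members equalled those of the report, which says nothing of stability, since the choice of genes fixed the EC count and the others were 0 where at most 2.26% of all genes were called. Of 576 recomputed differences of single members, 18 reversed and 6 moved beyond the replicate spread, and the others did neither. Scaling moved no median over all genes by more than 0.1. No cause below was tested.

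Over all genes, single replicates left out gave 75 to 311 calls in ECs (75 without No Dox replicate 3), 0 to 487 for MΦs at 1wk Dox over No Dox (0 without 1wk Dox replicate 4, where the lone library left is assumed to vary like the other groups), 23 to 123 at 1wk WD over No Dox and 0 to 24 at 1wk WD over 1wk Dox. For β cells the ranges were 1 to 26 (1wk Dox) and 0 to 2 (1wk WD) over No Dox, and for MΦs minus β cells 2 to 10 (1wk WD) and 0 to 2 (1wk Dox).

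With no trend there were 76 calls in ECs, 52, 11 and 0 in the 3 MΦ contrasts in that order, 1 in β cells at 1wk WD over No Dox and 1 over 1wk Dox, and 1 for the 1wk WD response. With only the groups compared there were 38, 49 and 79 in MΦs, 1 in β cells at 1wk Dox and 0 for the 1wk WD response. With no filter there were 37 and 4 in MΦs at 1wk WD over No Dox and over 1wk Dox, and 1 and 1 in β cells. A pseudocount of 20 gave 8 in MΦs at 1wk WD over 1wk Dox, 1 in β cells at 1wk WD over No Dox and 8 for the 1wk Dox response.

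Deviations from the group means in same-numbered samples of a cell type correlated at −0.213 to 0.195 (ECs), −0.117 to 0.11 (MΦs) and −0.48 to 0.339 (β cells). Samples with different numbers and samples of different cell types were not compared in this way, so whether the numbers pair samples is not shown. The joint fit of MΦs and β cells treated its samples as independent. With the number as a replicate block the ECs gave 283 calls, the MΦ contrasts 3, 43 and 0, β cells at 1wk Dox 0 and there were 0 for the 1wk WD response, and no call of a member changed.

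Reversed differences, none called, had these ranges with single replicates left out. In MΦs they were −0.37 to 0.56 (Adamts17, 1wk Dox), −0.7 to 0.23 (Adamts17), −0.1 to 0.04 (Glipr2) and −0.82 to 0.3 (Phox2a) at 1wk WD over No Dox, and −0.79 to 0 (Adamts17) over 1wk Dox. In β cells they were −0.11 to 0.76 (Phox2a, 1wk WD over No Dox), −1.15 to 1 (Glipr2) and −0.33 to 0.53 (Phox2a) over 1wk Dox and −0.16 to 1.33 (Egfem1, 1wk Dox), and −0.15 to 0.78 for Adamts17 in MΦs minus β cells. Adamts17 in MΦs at 1wk Dox was 0 with a pseudocount of 20.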
